A study of Drosophila melanogaster with 8 samples.

Results

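Within the euchromatic arms of the Drosophila melanogaster genome, 1019 windows of 1 kb carried few but not zero sequencing reads in input DNA from ovaries, and H3K9me3 at these windows and beside them is described here. Positions are 1-based and in genome build dm3. The windows were taken from arm 2L at 100001 to 20050000, 3L at 100001 to 22500000, 3R at 1500001 to 27801000 and X at 100001 to 20000000. They were chosen by the mean over 4 input libraries of the deposited RPKM (reads scaled to window length and library size), which had to be above 0 and below 2. They made up 1019 of the 88551 windows of these intervals and of 168744 windows listed in all. They are called low-coverage windows below. The windows were proposed as repeat-like, but their repeat content was not analysed here.

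The ovaries came from adult flies kept at 24 °C that were fed yeast before dissection. Flies of the first genotype carried MTgal4 with the hairpin shSov, named for Sov, and the other flies carried MTgal4 with the hairpin shW, taken here as the control, so both groups shared the driver and differed in the hairpin. Each genotype had 2 H3K9me3 ChIP libraries and 2 input libraries of lysate kept back before the immunoprecipitation. A ChIP and an input of the same genotype and number were treated as 1 lysate. The labels name whole ovaries, which hold germ cells and somatic cells, while the title of the series speaks of germ cells, so a change in some of the cells and a smaller change in all of them cannot be told apart. Nothing in the labels says that the 2 libraries of a group came from separate dissections, and p-values measure only the spread between them.

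H3K9me3, trimethylation of a lysine in the tail of histone H3, marks silent heterochromatin and is bound by heterochromatin protein HP1. In euchromatic arms it is found mainly at transposon insertions, where in the fly germline it can be placed by nuclear piRNA-guided silencing and can spread into the DNA beside the insertion. Sov is a zinc finger protein of the fly that associates with HP1 and is needed in the ovary. The uniquely mapping ends of an insertion and the DNA next to it are therefore the places where a short-read experiment can see the mark at a repeat.

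The ChIP libraries held 16514896 and 5847945 reads in shSov, against 4208693 and 6383061 in shW. The inputs held 27962050 and 26348096 reads in shSov, against 13688640 and 9760028 in shW. At the low-coverage windows shW replicate 1 stood apart from shW replicate 2 in both libraries. They held 0.0888% of its ChIP reads against 0.0828% in replicate 2, and 0.0576% of its input reads against 0.0655%. Its ChIP library was the shallowest of the 8. Results are given with and without this lysate where it decides them. Over the low-coverage windows the 2 shSov inputs differed by no more than sampling noise (chi-square 0.984 per degree of freedom). Over the well-covered windows, those with a mean input of at least 2 RPKM, the statistic for these inputs was 1.15, and they were counted as 2 samples.

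The low-coverage windows came in short runs of a few kilobases. Counted together with 2295 windows in the intervals that had no read in any input, they formed 653 unbroken runs, of which 557 held at least 1 low-coverage window and 96 held only windows without input reads. The median run was 5 kb long. Single windows accounted for 165 runs, 2 to 3 kb for 113 runs, 4 to 9 kb for 342 runs and at least 10 kb for 33 runs. The count per length was uneven, with 78 runs of 5 kb, 38 of 6 kb, 84 of 7 kb, 52 of 8 kb and 46 of 9 kb, followed by 4 of 10 kb. Most of the windows in the longer classes had no input read: the runs of 4 to 9 kb held 574 low-coverage windows and 1638 windows without input, and the runs of at least 10 kb held 147 and 531. The longest runs lay on 2L at 15653001 to 15727000 (74 kb) and on 3L at 19702001 to 19769000 (67 kb), and held 2 and 3 low-coverage windows. The run on X at 15907001 to 15951000 (44 kb) held 19.

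**Figure D1:**
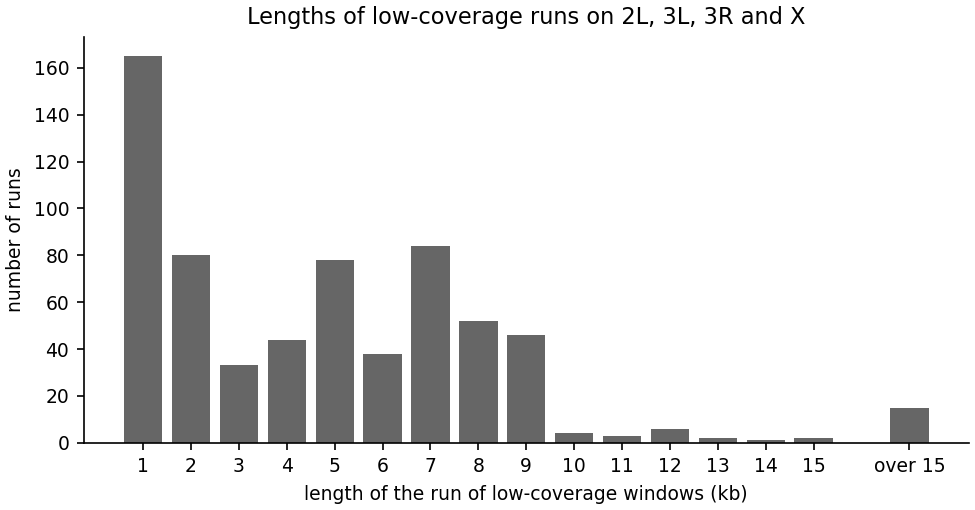
Lengths of the unbroken runs of low-coverage and zero-input windows in the euchromatic intervals (x axis, kb; y axis, number of runs). Runs of 7 kb are the most frequent length above 1 kb, with 84 runs, and the count drops to 4 at 10 kb.

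X held more of these windows than the autosomal arms did. There were 305 among 19900 windows of X (1.53%), 226 among 19950 of 2L (1.13%), 243 among 22400 of 3L (1.08%) and 245 among 26301 of 3R (0.932%). Many were nearly empty: 446 had a mean input below 0.25 RPKM, 122 lay from 0.25 to 0.5, 175 from 0.5 to 1, 149 from 1 to 1.5 and 127 from 1.5 to 2. The threshold fell within a continuous range. Just inside it lay the windows starting at X 10483001 (1.998 RPKM mean input), 3R 16092001 (1.99), X 1476001 (1.97), 3R 23999001 (1.97) and 2L 4939001 (1.97), and just outside it 3L 11610001 (2.01), 3L 16516001 (2.01), 2L 17336001 (2.01), 3L 19468001 (2.02) and X 6291001 (2.02).

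Relative to input, the low-coverage windows as a set had more H3K9me3 reads than input reads per library in all 4 lysates, while the pooled windows beside them and the pooled rest of the arms had fewer. The set held 12562 and 4467 ChIP reads in shSov, against 3738 and 5283 in shW. It held 16934 and 16000 input reads in shSov, against 7879 and 6395 in shW. As a share of the library this was 0.0761% (95% Wilson interval 0.0747 to 0.0774) and 0.0764% (0.0742 to 0.0787) of shSov ChIP reads, against 0.0888% (0.0860 to 0.0917) and 0.0828% (0.0806 to 0.0850) of shW ChIP reads. The intervals cover counting error only, since reads of amplified libraries are not independent molecules. Both shSov shares lay below both shW shares, and the 2 shSov libraries lay within each other's intervals while the 2 shW libraries did not. The share of input reads was 0.0606% and 0.0607% in shSov, against 0.0576% and 0.0655% in shW, so there the genotypes overlapped.

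The log2 ratio of ChIP to input, each as a share of its library, was 0.33 and 0.33 in the low-coverage windows of shSov lysates, against 0.63 and 0.34 in shW lysates. The counting error of these ratios was between 0.017 and 0.029 (SE). The shSov lysates agreed closely, and shW replicate 2 was near them. In the 4209 flank windows, meaning well-covered windows within 5 positions of a low-coverage window, the ratio was −0.11 and −0.10 in shSov, against −0.11 and −0.14 in shW. In all 85237 well-covered windows it was −0.25 and −0.25 in shSov, against −0.37 and −0.34 in shW.

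Subtracting the flank ratio within each lysate, which removes the scaling of libraries, left 0.44 and 0.43 in shSov and 0.74 and 0.48 in shW. All 4 lysates had the same sign, with a mean of 0.52 (a two-sided exact sign-flip test is then at the lowest p that 4 lysates allow, which is above 0.05). Since the windows were chosen by low input, which by itself raises a ratio over input, this is a description. When windows were instead chosen on the inputs of 1 replicate number and measured in the lysates of the other, the difference from the flank was 0.40 in shSov and 0.40 in shW for the 971 windows measured in replicate 2, and 0.43 in shSov and 0.73 in shW for the 929 measured in replicate 1.

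Between genotypes the pooled ratio of the low-coverage windows averaged 0.33 ± 0.0015 in shSov and 0.48 ± 0.20 in shW (SD, n = 2 each), a difference of −0.15 on the log2 scale. An exact permutation test on both sides gave p = 0.33, the lowest that 2 against 2 lysates allow. From the ChIP libraries alone, which the choice of windows did not use, the difference was −0.17 (exact p = 0.33). Without shW replicate 1, its ChIP and input together, the difference in the ratio was −0.0071, so 1 lysate decides its size. The change in the difference from the flank was −0.17 (exact p = 0.33), and −0.04 without shW replicate 1.

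**Figure D2:**
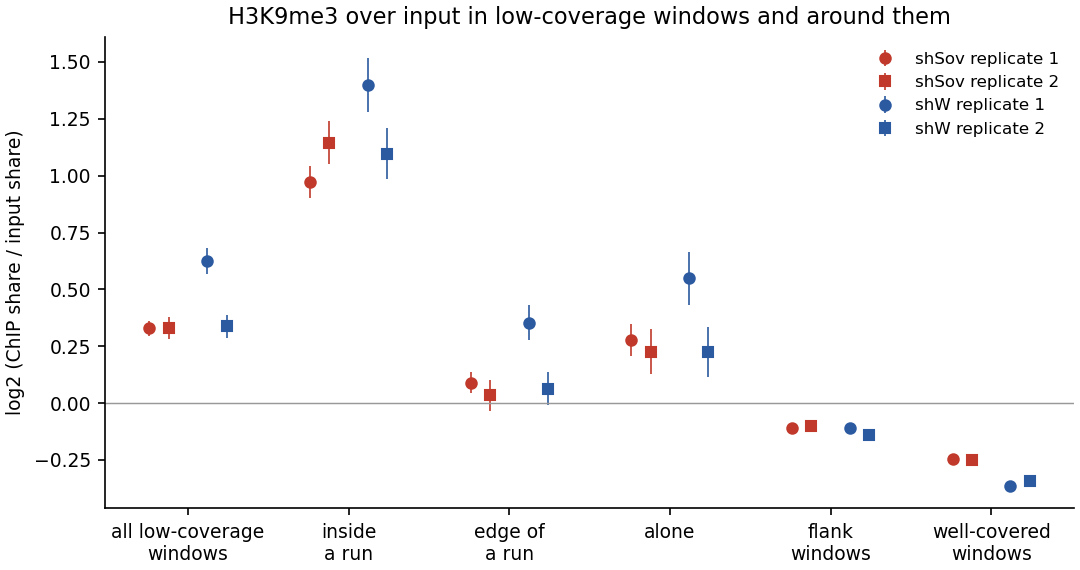
Pooled log2 ratio of H3K9me3 ChIP to input (y axis) per lysate in all low-coverage windows, those inside, at the edge of and apart from longer runs, flank windows and well-covered windows (x axis), with shSov left of shW. Points are lysates, and the bars are 95% intervals for counting error. All low-coverage windows together lie between 0.33 and 0.63, above every flank value, and the windows inside a run between 0.97 and 1.40.

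Windows inside a run had a higher ratio of ChIP to input than windows at its edge. Position in a run was set by the same inputs that form the ratio, so the comparison is a description. The 373 low-coverage windows with a low-coverage or zero-input window on both sides had a log2 ratio of 0.97 and 1.15 in shSov, against 1.40 and 1.10 in shW. The 505 windows at the edge of a run had 0.09 and 0.03 in shSov, against 0.35 and 0.06 in shW. The 141 windows that stood alone had 0.28 and 0.23 in shSov, against 0.55 and 0.23 in shW. Interior windows exceeded edge windows in every lysate, by 0.88 and 1.11 in shSov and by 1.05 and 1.03 in shW, and the genotypes overlapped in this difference. The gap was present in 2 broad bins of input, with 305 of the 373 interior windows and 231 of the 505 edge windows below 0.5 RPKM. Among windows with a mean input of 0.5 to 2 RPKM it was 0.95 and 1.19 in shSov, against 1.19 and 1.16 in shW. Among windows below 0.5 RPKM it was 0.58 and 0.62 in shSov, against 0.32 and 0.56 in shW.

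Arms differed in the level of enrichment, with X the highest and 2L the lowest in each of the 4 lysates. On X the ratio of low-coverage windows was 0.56 and 0.59 in shSov, against 1.10 and 0.63 in shW. On 3L it was 0.31 and 0.29 in shSov, against 0.57 and 0.31 in shW. On 3R it was 0.28 and 0.35 in shSov, against 0.33 and 0.24 in shW. On 2L it was 0.03 and −0.08 in shSov, against 0.14 and −0.01 in shW. The flank windows of X were enriched as well, with 0.16 and 0.24 in shSov, against 0.35 and 0.21 in shW. The high place of X was shared by all its well-covered windows, which had −0.01 and 0.06 in shSov, against 0.07 and −0.04 in shW. Well-covered windows of 2L, 3L and 3R lay between −0.57 and −0.32. After subtraction of the flank of the same arm, X no longer stood first. The difference was 0.56 and 0.59 in shSov, against 0.93 and 0.64 in shW, on 3L, and 0.50 and 0.60 in shSov, against 0.69 and 0.54 in shW, on 3R. It was 0.41 and 0.35 in shSov, against 0.75 and 0.42 in shW, on X, and 0.27 and 0.19 in shSov, against 0.50 and 0.30 in shW, on 2L. Over the 4 lysates, neighbouring arms in this order overlapped, and 2L stayed the lowest in each lysate.

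Interior windows showed the same low place of 2L. On 2L they had 0.39 and 0.47 in shSov, against 0.72 and 0.59 in shW. On 3L they had 1.16 and 1.38 in shSov, against 1.58 and 1.71 in shW. On 3R they had 1.28 and 1.58 in shSov, against 1.68 and 1.23 in shW, and on X 0.82 and 0.89 in shSov, against 1.46 and 0.97 in shW. On 2L, 3L and X both shSov lysates lay below both shW lysates in this ratio, and on 3R they overlapped. In the ChIP libraries alone the difference was −0.59 on 2L and −0.54 on X, but 0.18 on 3L, where both shSov libraries lay above both shW libraries (exact p = 0.33 for each), so on 3L the direction turned with the use of input. Without shW replicate 1 the difference in the ratio on X was −0.11, against −0.36 with it.

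In no arm did the difference between genotypes pass the exact test, which 2 against 2 lysates cannot do at 0.05. It was −0.29 on X (exact p = 0.33, Benjamini-Hochberg adjusted over the 4 arms 0.667), where both shSov lysates lay below both shW lysates, and −0.05 there without shW replicate 1. It was −0.13 on 3L, −0.09 on 2L and 0.03 on 3R (exact p = 0.667 for each), where the genotypes overlapped, and −0.0028, −0.01 and 0.07 without shW replicate 1. The input levels are bins of the same inputs that form the ratio, so that a higher ratio at a lower level follows in part from the binning, and the levels are a description. Below 0.25 RPKM the ratio was 0.67 and 0.75 in shSov, against 1.21 and 0.78 in shW, and from 1.5 to 2 RPKM it was 0.10 and 0.05 in shSov, against 0.27 and 0.06 in shW. The difference between genotypes was −0.29, −0.02, −0.18, −0.23 and −0.09 from the lowest of the 5 levels to the highest, and no adjusted exact p was below 0.556. Without shW replicate 1 these were −0.07, 0.25, −0.07, −0.08 and 0.02, so 2 of the 5 turned direction. In the ChIP libraries alone the lowest level also turned, to 0.06.

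**Figure D3:**
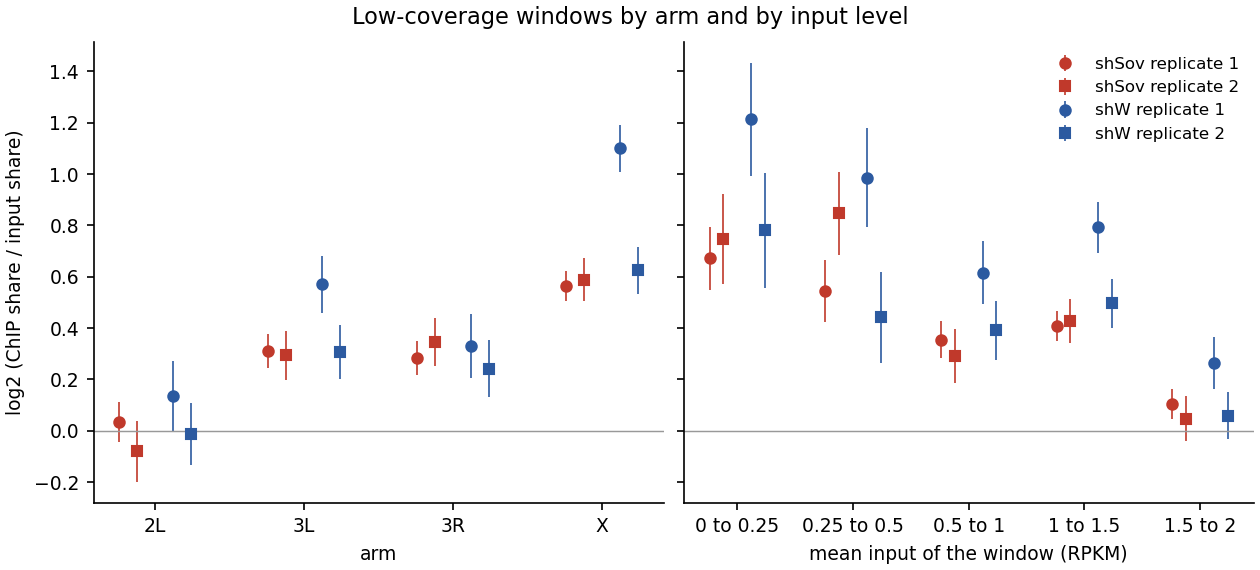
Pooled log2 ratio of ChIP to input per lysate (y axis) in low-coverage windows by arm and by mean input level in RPKM (x axis), with shSov left of shW and bars of 95% intervals for counting error. X is the highest arm in each lysate, and shW replicate 1, at 1.10 on X, lies above the other lysates there.

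In the well-covered DNA beside the runs the ratio dropped with distance in all 4 lysates, by more in both shW lysates than in both shSov lysates. In the first well-covered window beside a run with a low-coverage window (n = 1097 windows), the log2 ratio was −0.01 and −0.01 in shSov, against 0.14 and 0.0027 in shW. In the second it was −0.08 and −0.06 in shSov, against −0.08 and −0.09 in shW. In the fifth it was −0.19 and −0.20 in shSov, against −0.30 and −0.29 in shW. In the tenth (n = 905) it was −0.20 and −0.20 in shSov, against −0.36 and −0.32 in shW. With scaling by library totals, the order of the genotypes therefore turned between the first windows and the fifth. Under this scaling all well-covered windows together were 0.11 higher in shSov, so the order at a given distance depends on it. In the first window the difference was −0.08, and −0.015 without shW replicate 1, with counting errors between 0.0056 and 0.0097 (SE). Mean input was 5.92 RPKM in the first window and 7.93 RPKM in the tenth, so the first windows were themselves less well covered.

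The step from the tenth to the first window, which does not depend on library scaling, was 0.19 and 0.19 in shSov, against 0.50 and 0.32 in shW. The means were 0.19 ± 0.0018 in shSov and 0.41 ± 0.13 in shW (SD, n = 2 each), a difference of −0.22 (exact two-sided p = 0.33 by permutation), and −0.13 without shW replicate 1. This measure was chosen after the data had been examined. Both shSov lysates lay below both shW lysates in every arm. The step was 0.13 and 0.17 in shSov against 0.31 and 0.28 in shW on 2L, 0.13 and 0.10 against 0.50 and 0.27 on 3L, 0.22 and 0.23 against 0.53 and 0.38 on 3R, and 0.23 and 0.23 against 0.57 and 0.34 on X.

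The step was also seen beside short runs. Beside runs of 1 kb it was 0.26 and 0.27 in shSov, against 0.58 and 0.41 in shW. Beside runs of 2 to 3 kb it was 0.26 and 0.25 in shSov, against 0.81 and 0.45 in shW. Beside runs of 4 to 9 kb it was 0.12 and 0.12 in shSov, against 0.33 and 0.23 in shW. Beside the runs of at least 10 kb the genotypes overlapped, with 0.18 and 0.14 in shSov, against 0.27 and 0.14 in shW.

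**Figure D4:**
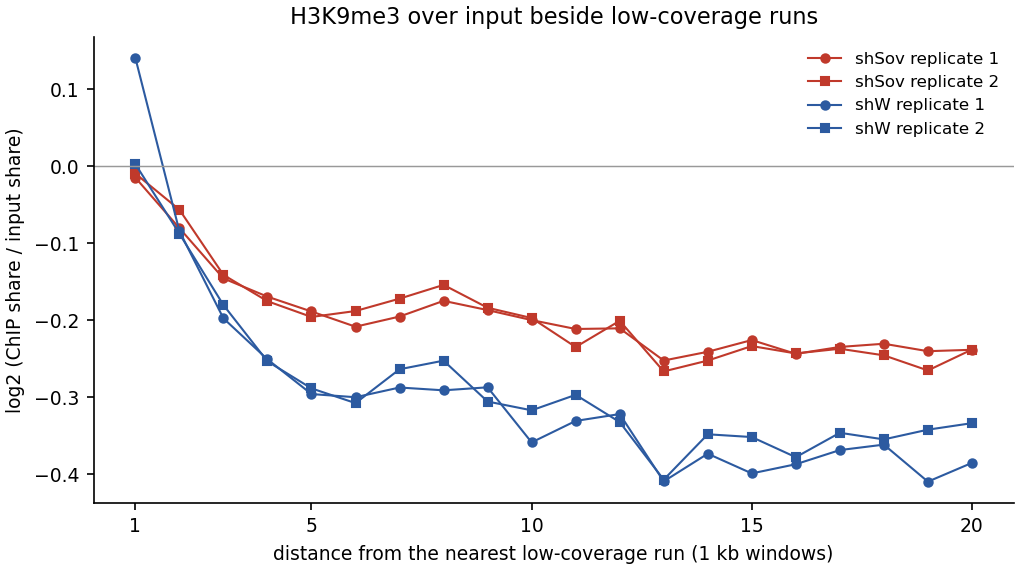
Pooled log2 ratio of ChIP to input (y axis) in well-covered windows at 1 to 20 windows of 1 kb from a run with a low-coverage window (x axis), 1 line per lysate. From the first to the tenth window the 2 shW lines drop by 0.50 and 0.32 and the 2 shSov lines by 0.19 each.

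Enrichment was unevenly spread over the windows. With at least 20 input reads in each genotype, 309 low-coverage windows had a ratio that could be read singly. Their median ratio of ChIP to input was 0.894 in shSov and 0.805 in shW, both below 1. A ratio of at least 2 was reached by 37 of them in shSov (12%) and by 52 in shW (16.8%), with 31 shared. On X this was 18 of 89 windows in shSov (20.2%) and 27 in shW (30.3%), and on 2L 3 of 69 in shSov and 2 in shW. The counts in the flank were 155 of 4209 in shSov (3.68%) and 279 in shW (6.63%). A ratio of 0.5 or less was found in 24 low-coverage windows in shSov (7.77%) and 61 in shW (19.7%), and in 46 flank windows in shSov (1.09%) and 556 in shW (13.2%). The share of low-coverage windows was thus larger at both ends. They hold fewer input reads than flank windows, and the part of counting error in this spread was not tested. The 102 windows with the most reads held 41.5% and 45.2% of the ChIP reads of the set in shSov, against 51.0% and 48.2% in shW, and between 31.6% and 33.8% of its input reads.

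Tested one by one, no low-coverage window passed the test for a change in enrichment between genotypes. The test was edgeR's quasi-likelihood F-test of the interaction of genotype and antibody over all 130081 windows with at least 10 reads, with Benjamini-Hochberg adjustment at 0.05. Of the 1019 low-coverage windows, 762 were tested and 257 had fewer than 10 reads over the 8 libraries. None was called lower in shSov (0.585% of all tested windows were) and none higher (0.241%). At an unadjusted p under 0.05, 29 were lower (3.81%) and 15 higher (1.97%), against 4.66% and 8.43% of all tested windows. DESeq2 called 0 lower and 0 higher, with 23 (3.02%) and 2 (0.262%) at an unadjusted p under 0.05, against 6.07% and 1.65% of all tested windows. Without shW replicate 2 edgeR called 11 lower (1.49%) and 2 higher (0.270%), against 4.60% and 4.01% of all windows. Without shW replicate 1 it called 2 lower (0.272%, against 0.797%). In the flank windows 45 of 4209 were called lower (1.07%) and 13 higher (0.309%). The median fitted change was −0.03 in low-coverage windows and 0.17 over all tested windows. With groups under 3 reads set to 3 the medians were −0.12 and 0.18. The floor touched 219 of the low-coverage windows and unequally by genotype, since it raised the ChIP reads of shSov in 63 windows and those of the shallower shW libraries in 163. A window median and a pooled sum weigh windows differently.

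The window with the smallest p for a lower enrichment started at X 5621001. It held 10 and 4 ChIP reads in shSov, against 11 and 10 in shW, over 30 and 33 input reads in shSov, against 9 and 4 in shW. The edgeR change was −2.71 ± 0.71 (SE, log2) with an adjusted p of 0.054. The window with the smallest p for a higher one started at 2L 5166001. It held 51 and 24 ChIP reads in shSov, against 5 and 10 in shW, over 29 and 19 input reads in shSov, against 22 and 9 in shW. Its edgeR change was 1.83 ± 0.59 (SE) with an adjusted p of 0.153. Both windows were named after their values were seen.

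When each run was summed to 1 feature, 1 of the 492 tested runs was called lower in shSov (0.203%, against 0.585% of all features) and none higher (0.242% of all features). At an unadjusted p under 0.05, 31 runs were lower (6.30%) and 12 higher (2.44%), against 4.66% and 8.44% of all features. DESeq2 called none in either direction, with 28 lower (5.69%) and 2 higher (0.407%) unadjusted, against 6.08% and 1.65% of all features. The called run lay on 3R at 2243001 to 2245000 and was 2 kb long. It held 52 and 13 ChIP reads in shSov, against 29 and 49 in shW, over 74 and 55 input reads in shSov, against 30 and 20 in shW. The log2 ratio was 0.25 and 0.09 in shSov, against 1.65 and 1.91 in shW. The edgeR change was −1.50 ± 0.38 (SE) with an adjusted p of 0.045. The call was lost without shSov replicate 1 and without shSov replicate 2. Its 10 flank windows also had lower values in shSov, −0.36 and −0.58, against −0.02 and 0.16 in shW.

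The 5 runs with the most H3K9me3 reads in shW ranged from interleaved lysates to lysates that did not overlap between genotypes. Ranking by shW ChIP reads by itself favours a higher ratio in shW, so the order of the genotypes in these 5 runs is a description. The run on 3L at 20470001 to 20477000 (7 kb) held 427 and 161 ChIP reads in shSov, against 116 and 204 in shW. Its log2 ratio was 2.25 and 2.43 in shSov, against 2.29 and 2.35 in shW, and the edgeR change was −0.0070 ± 0.31 (SE, adjusted p = 0.997). The lysates of the 2 genotypes interleaved there.

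The single window on 2L starting at 4939001 had 155 and 48 ChIP reads in shSov, against 51 and 98 in shW, and a log2 ratio of 2.58 and 1.92 in shSov, against 2.85 and 2.64 in shW (adjusted p = 0.511 by edgeR). The run on X at 4826001 to 4828000 had 108 and 19 ChIP reads in shSov, against 72 and 62 in shW, and a ratio of 2.09 and 1.56 in shSov, against 3.55 and 2.48 in shW (adjusted p = 0.351 by edgeR). The 44 kb run on X had 0.45 and 0.89 in shSov, against 1.37 and 1.05 in shW (adjusted p = 0.301 by edgeR). In these 3 the shSov lysates lay below both shW lysates without passing the test.

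In the fifth of these runs the amount of input DNA differed as well. On 3R at 26900001 to 26907000 there were 183 and 162 input reads in shSov, against 31 and 19 in shW, a log2 difference of 1.57 between inputs (edgeR, adjusted p = 4.6e-05). ChIP reads numbered 366 and 119 in shSov, against 63 and 82 in shW. The ratio was 1.76 and 1.73 in shSov, against 2.72 and 2.72 in shW, with an edgeR change of −0.93 ± 0.29 (SE, adjusted p = 0.147). Of 343 runs with at least 50 input reads, 62 had both shSov ratios below both shW ratios and 75 had both above. In random order, 2 against 2 lysates separate in 1 direction or the other with a probability of 0.33. That figure assumes no offset between libraries and does not replace a count over all features. Scaled by library totals, all well-covered windows together were 0.11 higher in shSov. A ratio of at least 2 was found in 46 and 46 runs in the shSov lysates, against 83 and 62 in the shW lysates, with 21 runs in all 4. At or below input in all 4 were 74 runs. These counts were not set beside a count over all features, so they are a description.

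The ChIP libraries alone gave more calls than the interaction. In edgeR's quasi-likelihood test of the 4 ChIP libraries, 35 of the 762 low-coverage windows were lower in shSov (4.59%, against 3.41% of all tested windows) and 18 were higher (2.36%, against 3.53%). At an unadjusted p under 0.05 there were 88 lower (11.5%) and 59 higher (7.74%), against 7.75% and 16.0% of all tested windows. The tested low-coverage windows numbered 235 on X, 186 on 3L, 177 on 3R and 164 on 2L. The called lower windows lay in 31 runs, with 14 on X, 12 on 3L, 5 on 3R and 4 on 2L. The called higher windows lay in 12 runs, with 8 on 3R, 6 on X, 4 on 3L and 0 on 2L. Input moved with these calls: it had the same direction in 31 of the 35 lower windows and 17 of the 18 higher ones, and was itself called in 4 and 10. The part of input in the ChIP difference was not tested beyond the interaction. The interaction contains the ChIP change by which these windows were chosen, so its direction follows in part from the choice. The direction was the same in 34 of the 35 and 14 of the 18. The unadjusted p of the interaction (edgeR) was under 0.05 in 12 and 1 of them. The calls depended on the libraries and the tool. Without shSov replicate 1 there were 3 lower (0.394%) and 4 higher (0.525%), against 0.155% and 0.212% of all windows. Without shSov replicate 2 there were 5 (0.656%) and 6 (0.787%), against 0.0923% and 0.135%. DESeq2 called 1 (0.131%) and 0, against 3.60% and 0.194%. At an unadjusted p under 0.05 DESeq2 had 79 lower (10.4%) and 22 higher (2.89%), against 7.88% and 1.76% of all tested windows.

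The following windows were named after their values were seen, from among those with the smallest p in the ChIP libraries. The window on X starting at 6067001 had 2.85 and 2.57 ChIP RPKM in shSov, against 9.74 and 8.30 in shW, while input was 1.25 and 1.37 RPKM in shSov, against 1.31 and 1.84 in shW. Its edgeR change in ChIP was −1.69 ± 0.29 (SE, log2), with an adjusted p of 0.0001. Input there was close to equal and ChIP did not overlap. The window on 3L starting at 3603001 had 0.303 and 0.171 ChIP RPKM in shSov, against 4.04 and 2.51 in shW, and 0.501 and 0.417 input RPKM in shSov, against 0.657 and 0.717 in shW. Its edgeR change in ChIP was −3.49 ± 0.61 (SE, adjusted p = 0.00014), and its change in enrichment was −2.95 (adjusted p = 0.069).

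Elsewhere the input differed as much as the ChIP. The window on 3L starting at 19855001 had 0.908 and 0.684 ChIP RPKM in shSov, against 5.46 and 4.23 in shW, and its input was 0.215 and 0.455 RPKM in shSov, against 1.39 and 2.05 in shW. The edgeR change was −2.47 in ChIP and −2.30 in input (adjusted p = 0.00013 and 0.0028). The window on X starting at 14452001 had 0 and 0 ChIP reads in shSov, against 4 and 13 in shW, at least 12-fold lower with a floor of 3 reads over the group, and 0 and 1 input reads in shSov, against 5 and 6 in shW.

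The higher windows with the smallest p were of the same kind. The window on X starting at 19831001 had 65 and 21 ChIP reads in shSov, against 0 and 0 in shW, at least 13.6-fold higher with the same floor, and 57 and 61 input reads in shSov, against 0 and 0 in shW. The window on 3R starting at 26906001, in the 7 kb run described above, had 92 and 28 ChIP reads in shSov, against 2 and 4 in shW, and 61 and 58 input reads in shSov, against 2 and 0 in shW. The window on 3R starting at 7809001 had 29 and 13 ChIP reads in shSov, against 0 and 0 in shW, and 64 and 67 input reads in shSov, against 0 and 0 in shW. On 3R at 22656001 there were 51 and 9 ChIP reads in shSov, against 0 and 1 in shW, and 100 and 108 input reads in shSov, against 1 and 0 in shW. On 3L at 5048001 there were 32 and 9 ChIP reads in shSov, against 0 and 0 in shW, at least 6.47-fold higher, and 11 and 9 input reads in shSov, against 0 and 0 in shW. Each of these 5 windows held at least 9 reads in both shSov inputs and at most 2 in a shW input.

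**Figure D5:**
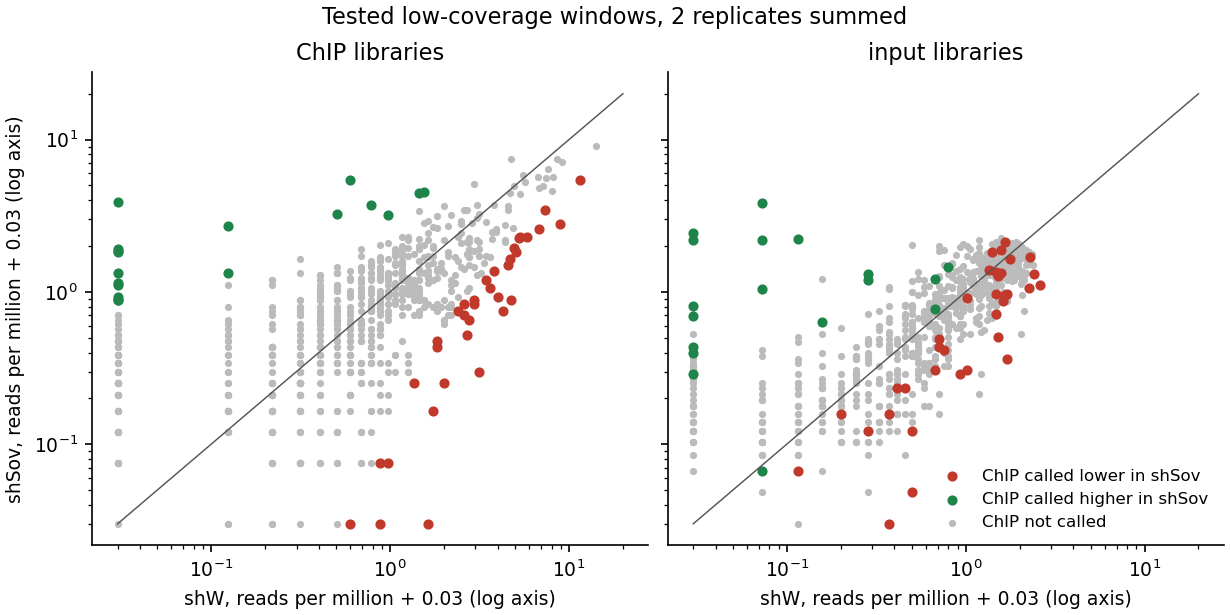
Reads scaled to library size in each tested low-coverage window, 2 replicates summed, in shSov (y axis) against shW (x axis), for ChIP (left) and input (right), on log axes with 0.03 added. Coloured points are the 35 windows called lower and the 18 called higher in shSov from the ChIP libraries alone, and many of them lie off the diagonal in the input panel as well.

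Over the whole set a small share of windows differed in input between genotypes, but a larger one than in the DNA around them. Of the 762 tested windows, 15 had higher input in shSov (1.97%, against 1.05% of all tested windows) and 8 had lower input (1.05%, against 0.749%), by edgeR at an adjusted p of 0.05. Within the euchromatic intervals the shares higher and lower were 0.546% and 0.832% of flank windows, and 0.547% and 0.743% of well-covered windows. No input read was found in 35 windows in either shSov input and in 182 windows in either shW input, where the shSov inputs were also the deeper ones. Because the choice of windows used these inputs, the counts are a description.

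As a description too, ChIP against input within each genotype called 126 of 762 windows higher in shSov (16.5%, against 18.1% of all tested windows) and 126 in shW (16.5%, against 18.9%), of which 76 were shared (60.3% of each list). All tested windows reach beyond the euchromatic intervals. Within these, 11.3% of flank windows were higher in shSov and 12.8% in shW, and 6.54% and 7.81% of well-covered windows. Lower than input were 18 windows in shSov (2.36%, against 34.6% of all tested windows) and 27 in shW (3.54%, against 45.7%), in a set with few reads per window. The higher windows by arm numbered 52 in shSov (22.1% of those tested there) and 53 in shW (22.6%) on X. They numbered 30 (16.1%) and 28 (15.1%) on 3L, 30 (16.9%) and 28 (15.8%) on 3R, and 14 (8.54%) and 17 (10.4%) on 2L. The equal counts hide a partial overlap of windows, and reads per window were few, with a median of 7 and 2 ChIP reads in the shSov libraries, against 1 and 2 in the shW libraries.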

How the data were processed

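H3K9me3 ChIP and input DNA were sequenced from ovaries of both genotypes as single 50-base reads, per the labels' protocols. The authors deposited, for each 1 kb window of dm3, a raw count of reads and the RPKM made from it. The submitters' processing notes name Bowtie, bedtools and dm3. How reads with several matches and duplicate reads were treated is not given in the sources used here. If such reads were dropped, windows in repeats lose coverage in ChIP and input alike.

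The windows, lists and comparisons were chosen with earlier results of these data known. Deposited counts were summed over windows and divided by library totals (4208693 to 27962050 reads). Pooled ratios were compared by exact permutation and sign-flip tests coded with numpy 2.4.6, and the Wilson intervals came from scipy 1.17.1. Windows and runs with at least 10 reads were fitted with edgeR 4.0.16 (library totals as offsets, mitochondrial windows left out) and, as an alternative, DESeq2 1.42.0. The edgeR script was tested on simulated data. Floors are 3 reads.

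The naming rule took windows and runs past an adjusted p of 0.05 in the interaction (10 windows and 5 runs a direction), the 5 runs with most shW ChIP reads and the 5 windows nearest the threshold on each side. No window passed, so other windows were named after their values were seen. Replicate numbers paired no samples: deviations of same-numbered ChIP libraries correlated at 0.03 over low-coverage windows.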

Additional observations from a re-analysis of the deposited data

Results flagged for a closer look

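The pooled change between genotypes in the log2 ratio of ChIP to input had opposite signs in the low-coverage windows and in the flank windows. It was −0.15 in low-coverage windows and 0.02 in their flank windows. The lysates of the genotypes did not overlap in either set, but the nearest ones lay closer than their counting error. These were 0.331 (SE 0.024) in shSov and 0.337 (SE 0.027) in shW in low-coverage windows. In flank windows they were −0.1085 (SE 0.0026) in shSov and −0.1099 (SE 0.0048) in shW. It was −0.15 against 0.11 when the low-coverage windows were set beside all well-covered windows. The difference itself was tested for the flank, with a change of −0.17 (exact two-sided p = 0.33 by permutation, the lowest that 2 against 2 lysates allow). The sign in the flank rests on the scaling: the flank change was 0.0049 in the ChIP libraries alone (exact p = 0.667) and −0.09 relative to the well-covered windows. It was not shared by every flank window, with −0.08 in the first window beside a run and −0.08 in the flank of X.

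Windows of the intervals without a read in any input held a few ChIP reads: 36 and 9 in shSov, against 16 and 15 in shW, in 25 and 8 windows in shSov, against 13 and 13 in shW. These 76 reads lay in 43 of the 2295 windows.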

How the results depend on the processing

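No alternative took a pooled change past a test's threshold, which 2 lysates a genotype cannot reach. The pooled change in low-coverage windows kept its sign under 14 of 15 alternatives: with windows chosen on replicate 1 inputs and measured in replicate 2 it was 0.045, and the other way round −0.30. Sums reversed in arm 2L with mean window ratios (0.0043), in 3R when scaled to the well-covered windows (−0.081) or with windows chosen on shW inputs (−0.0091), below 0.25 RPKM in ChIP alone (0.059) and from 1.5 to 2 RPKM with mean window ratios (0.032). Leaving out 1 lysate, its ChIP and input together, gave −0.30 to −0.0071 for the pooled change and −0.30 to −0.04 after subtraction of the flank. It gave 0.45 to 0.55 for the mean difference from the flank and −0.31 to −0.13 for the step beside runs. By arm it gave −0.16 to −0.01 on 2L, −0.27 to −0.0028 on 3L, −0.017 to 0.071 on 3R and −0.52 to −0.05 on X. By level it gave −0.50 to −0.07, −0.29 to 0.25, −0.29 to −0.07, −0.37 to −0.08 and −0.19 to 0.017. The cause of these reversals was not tested. Windows called lower by the interaction numbered 3 with TMM, 4 without the filter, 1 at 50 reads or more and 6 with DESeq2 size factors, and runs 4, 4, 1 and 6, with 0 runs by DESeq2. Leaving out 1 lysate gave 0 to 11 windows lower and 0 to 2 higher, and 0 to 10 runs lower and 0 to 4 higher. In ChIP alone, leaving out 1 library gave 3 to 50 windows lower and 4 to 20 higher. DESeq2 called 1 lower and 0 higher in ChIP alone. With the replicate number as a block, the pooled change was −0.15 (exact sign-flip p = 0.5, the smallest possible), the interaction called 0 windows in either direction and 1 run lower, and ChIP alone called 27 lower and 13 higher. TMM moved the median change of all tested windows by over 0.1, to 0.03 against 0.17, and gave 46 lower and 13 higher low-coverage windows in ChIP alone. Levels with fewer than 20 windows under an alternative gave no value. Few reads per window limit what single windows can show.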
